A study of Mus musculus with 19 samples.

Results

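H3K9me2, dimethylation of lysine 9 on histone H3, was compared between *Dnmt1* conditional knockout (cKO) and control mouse embryonic stem cells (ESCs) at day 8. The 4 libraries of this comparison were chosen by their labels (mark, day and genotype) from the 19 samples of the series, and 2 were control and 2 cKO. Each cKO library was set against the control library with the same number, as pair 1 and pair 2. The labels give genotype Wildtype for the controls and Dnmt1 KO for the others, with background strain E14 and cell type ESC for all. The study's methods describe instead Dnmt1 loxP/loxP ESCs of strain C57BL/6 in which Cre recombinase was induced by 4-hydroxytamoxifen (4OHT), and this difference in strain was not resolved. ChIP-seq reads do not show expression, so the cell type could not be checked against marker genes. Neither the labels nor the methods say whether libraries 1 and 2 were separate cultures, and the methods speak of a single ChIP-seq measurement and call no significant differences from it. The p-values and the counts over both pairs below therefore measure the spread between these libraries, which may be technical. Chromatin was precipitated with the antibody Abcam ab1220, and 1 input library of control chromatin without antibody served as background. The day 4 H3K9me2 pair (1 control, 1 cKO), which enters no choice of features, was used as a further readout.

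H3K9me2 is laid down mainly by the enzyme complex of G9a (*Ehmt2*) and GLP (*Ehmt1*), covers broad domains of largely silent chromatin, and is low at CpG-rich promoters and in gene-rich regions. DNMT1 copies CpG methylation onto the new DNA strand after replication, and its partner UHRF1 binds both hemimethylated DNA and methylated H3K9. The question behind the comparison was whether the mark is redistributed once DNA methylation is lost. The genome (build NCBIM37) was divided into tiles of 2 kb, and reads were counted per tile. Levels are given as observed over expected reads (o/e), in which 1 is the genome average and which are per length. Changes are log2 ratios of RPM (reads relative to the total of the library), cKO over control. Both are relative to the whole library, so a change of H3K9me2 everywhere at once cannot be seen.

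The labels were checked at the deleted gene. *Dnmt1* (chromosome 9, 20711650 to 20757317, minus strand, ENSMUSG00000004099) had no reads in cKO in the tile from 20744001 to 20746000, which overlaps exons 4 and 5 of 39. The control libraries held 10 and 7 reads there, both cKO libraries held 0 and the input held 14. This tile was picked as the one of the 24 in the gene with the fewest day 8 cKO reads. In the day 4 pair, which did not pick it, the control held 8 reads there and the cKO 3. Elsewhere in the gene, over 23 tiles, the control libraries held 164 and 181 reads, the cKO libraries 253 and 397, and the input 325. H3K9me2 over the rest of *Dnmt1* was thus higher in cKO, by 0.85 in pair 1 and 0.64 in pair 2 on the log2 scale, whereas the day 4 pair differed by 0.10. Over the whole gene body the changes were 0.77 and 0.59 (limma adjusted p-value 0.603). With each control replaced by its best mix with the input, described below, they were 0.50 and 0.21.

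The libraries were unlike each other in ways that touch every result below. They held 22103840 (control 1), 16216366 (control 2), 18893105 (cKO 1) and 22712069 (cKO 2) reads in tiles, and the input held 19010249. Reads given for a gene are raw and are to be read against these totals, while changes and statements on overlap use RPM. Library cKO 2 lay close to the input. Across 25442 windows of 100 kb, the standard deviation of log2 H3K9me2 over input was 0.226 in cKO 2, against 0.518, 0.439 and 0.463 in control 1, control 2 and cKO 1. In cKO 2, 7.36% of windows were 0.32 or more above the input on the log2 scale, against 20.2%, 17.8% and 19.9%. A mix of 57% input and the remainder control 2 came closest to cKO 2, with a root mean square difference of 0.145 on the log2 scale, against 0.309 without input. The corresponding weight for cKO 1 from control 1 was 16%. Control 1 stood apart by base composition. Its level correlated with the GC content of the windows at r = -0.26, against -0.02 in control 2, 0.07 in cKO 1, 0.20 in cKO 2 and -0.00 in the input. Points of these correlations are windows of the same libraries and are not replicates.

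No 100 kb window and no gene body passed the unpaired test of cKO against control libraries. A fit with a term for the pair did call windows and gene bodies, and its counts are given in the closing section. With limma (2 libraries against 2, two-sided, with no term for the pair), 0 of 25442 windows passed an adjusted p-value of 0.05, and the smallest adjusted p-value was 0.293. Without adjustment 4159 windows were under 0.05. Of 19875 gene bodies with enough reads, 0 passed with limma (smallest adjusted p-value 0.603) and 1478 were under 0.05 unadjusted. Of 5879 promoters, 1 passed (0.017%), that of *Rxrg*, and 523 were under 0.05 unadjusted. With limma-voom 0 windows, 0 gene bodies and 0 promoters passed, with 6262, 1429 and 492 under 0.05 unadjusted. The counts depended on which library was left out. Leaving out cKO 1, so that the lone cKO 2 was assumed to vary like the controls, gave 3044 windows, 5691 gene bodies and 2 promoters, whereas leaving out cKO 2 gave 5, 5 and 0. Without control 1 the counts were 0, 0 and 0, and without control 2 they were 0, 0 and 5. With 2 libraries against 2, the smallest two-sided p-value of an exact permutation test is 0.3333. Features below that were alike in both pairs are therefore given as a description.

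The 100 kb windows that were higher in cKO in both pairs far outnumbered those that were lower. At 1.5-fold in each pair, 160 of 25442 windows were higher (0.629%) and 0 were lower (0%), while 1 and 1 moved in opposite directions. Pair 1 alone had 434 higher and 116 lower windows, and pair 2 alone 1753 higher and 34 lower. At a lower limit of 0.32 on the log2 scale, 1817 windows were higher and 183 lower in both pairs. The median change over all windows was -0.00 in pair 1 and -0.03 in pair 2, and the standard deviation from counting alone was 0.071 and 0.074. Pair 1 and pair 2 correlated at r = 0.507 over windows. When the control libraries were exchanged between the pairs, r was 0.215 and 14 windows were higher and 3 lower at 1.5-fold.

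Where the gain lay differed between the pairs. Windows were ranked by the day 4 control over input, a library that enters neither day 8 pair. In the decile of windows with the lowest H3K9me2, which held 2.65 genes per window, the o/e was 0.613 and 0.666 in the controls, 0.653 in cKO 1, 0.988 in cKO 2 and 1.27 in the input. The mean change there was 0.22 in pair 1 and 0.68 in pair 2. In the decile with the highest H3K9me2, with 0.437 genes per window, the controls had 1.37 and 1.45, cKO 1 had 1.44, cKO 2 had 1.21 and the input 0.976. There pair 1 changed by 0.06 and pair 2 by -0.26. Pair 2 thus declined along the whole ranking, with gain where the mark was low and loss where it was high, and pair 1 was above 0 at both ends and lowest in the middle (-0.08 in the decile ranked 6). The ratio of the highest to the lowest decile was 2.19 to 2.24 in control 1, control 2 and cKO 1 and 1.23 in cKO 2.

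**Figure D1:**
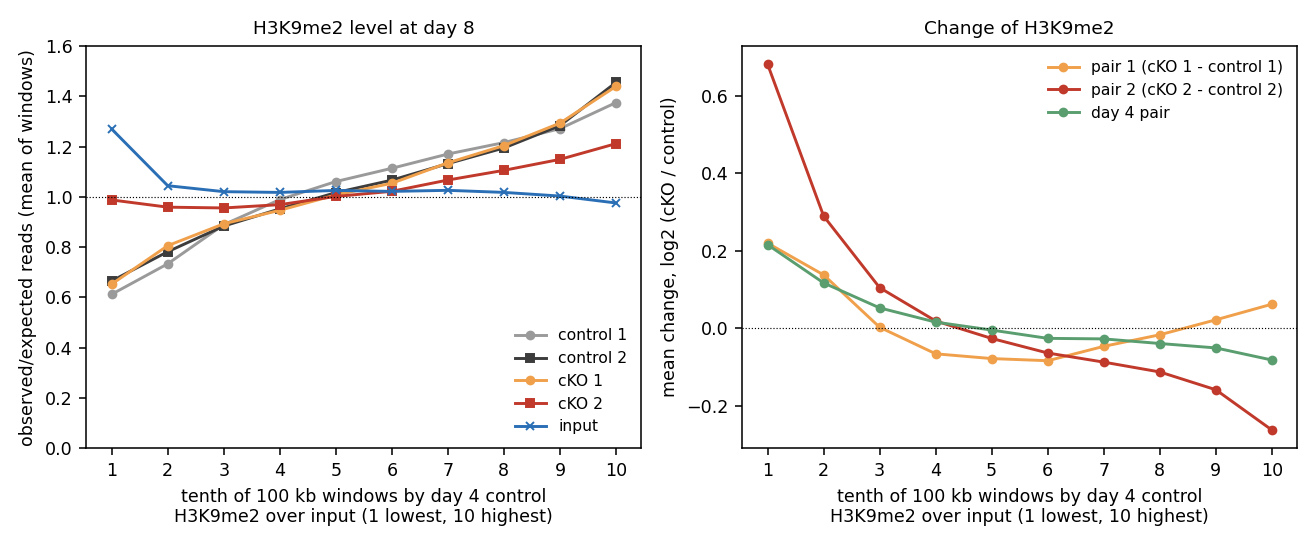
Left, mean observed over expected H3K9me2 reads per decile of 100 kb windows, ranked by the day 4 control over input, for each day 8 library and the input. Right, mean log2 change of each pair over the same deciles. cKO 2 is the flattest H3K9me2 library and pair 2 runs from 0.68 to -0.26, while cKO 1 follows the controls. The day 4 pair shares its control with the ranking.

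GC content moved with both pairs, and most with pair 1. The mean change of windows was larger in each successive bin of GC content from 34% to 50%, going from -0.40 to 0.45 in pair 1 and from -0.10 to 0.41 in pair 2. Over all windows the change correlated with GC content at r = 0.830 in pair 1 and 0.393 in pair 2. The excess of the input over the day 4 control correlated with the change at r = 0.200 in pair 1 and 0.855 in pair 2. Each pair therefore followed mainly a different property of the windows, and both properties are high in gene-rich sequence. After each library's median per GC bin was subtracted, 4 windows were higher and 4 lower at 1.5-fold in both pairs. When each control was replaced by its mix with the input at the weights above, 0 were higher and 1 was lower. Their part in the change was not tested beyond these corrections.

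**Figure D2:**
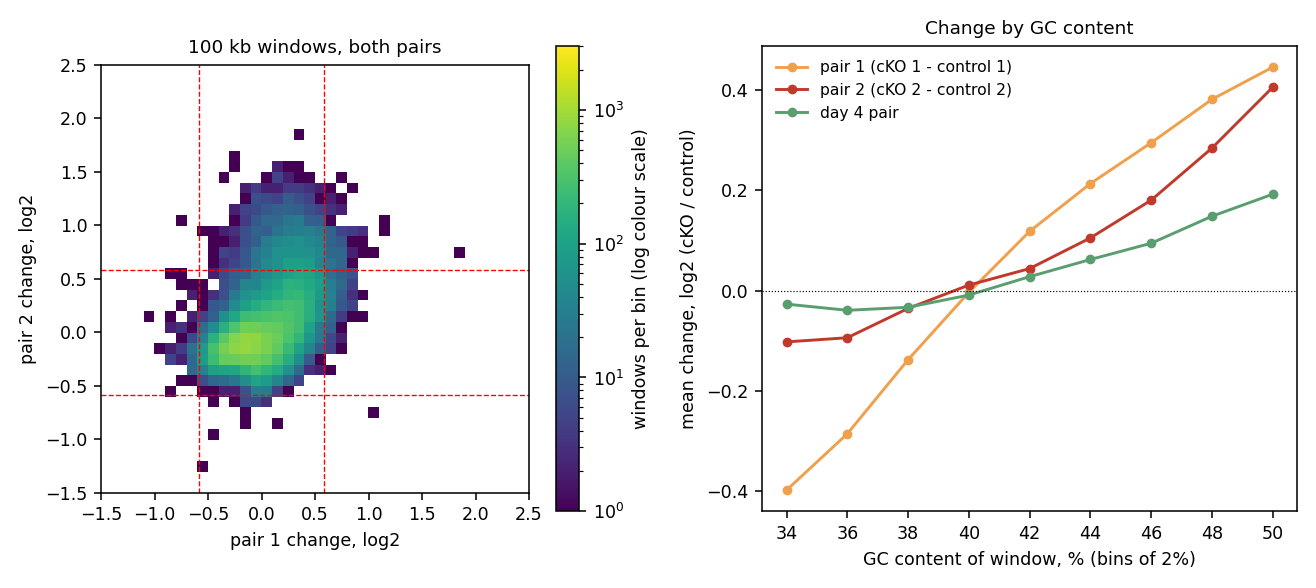
Left, number of 100 kb windows by log2 change in pair 1 (x axis) and pair 2 (y axis), in bins of 0.1 on a logarithmic colour scale, with dashed lines at 1.5-fold. Right, mean log2 change by GC content of the window for both day 8 pairs and the day 4 pair. The upper right corner holds 160 windows and the lower left 0, and pair 1 climbs steepest with GC content.

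Runs of adjacent windows marked out domains. A domain was at least 3 adjacent 100 kb windows, each changed by 0.32 or more (log2) with the same sign in each pair, and 176 domains were higher and 2 lower. The higher domains covered 757 windows (75.7 Mb) and overlapped protein-coding genes 2208 times, or 29.2 per Mb. A gene that reaches into several domains counts in each, so this is not comparable with counts of gene starts. By gene starts, the 1817 windows higher by 0.32 or more in both pairs held 2.54 genes per window. All windows held 0.870. Their median GC content was 48.6%, against 41.2% over all windows. They lay on 19 chromosomes, with 28 on chromosome 11, 22 on chromosome 5, 17 on chromosome 4 and 14 each on chromosomes 7 and 2, and none on X. The median o/e of these domains was 0.513 and 0.655 in the controls, 0.724 in cKO 1, 1.00 in cKO 2 and 1.02 in the input, and the median change was 0.49 in pair 1 and 0.61 in pair 2. In words, these were stretches of low H3K9me2 in control cells, higher in cKO 1 and at the level of the input in cKO 2. In none of the 4 corrected or exchanged comparisons was the number of higher domains near 176. It was 0 after GC correction, 6 with the input mixture, 9 with exchanged controls and 11 with pair 1 and the day 4 pair.

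The longest higher domain, chr7:51800001-53200000, spanned 1400 kb with 88 genes, among them *Pold1* (catalytic subunit of DNA polymerase delta), *Prmt1* (the main arginine methyltransferase), *Irf3* (an interferon regulatory factor), *Bax* (an apoptosis effector) and *Ruvbl2* (an ATPase of chromatin remodellers). It held 4107 and 4380 reads in the controls, 4833 in cKO 1, 11059 in cKO 2 and 9841 in the input. The change was 0.46 in pair 1, 0.85 in pair 2 and 0.28 in the day 4 pair. Control 2 (o/e 0.512) was above cKO 1 (0.485) here, so the control and cKO libraries overlapped in level.

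The next in length, chr11:116700001-117900000, spanned 1200 kb with 21 genes, including *Srsf2* (a splicing factor), *Birc5* (survivin) and *Socs3* (an inhibitor of cytokine signalling). Its o/e was 0.435 and 0.638 in the controls, 0.638 and 0.991 in the cKO libraries and 0.966 in the input. Control 2 and cKO 1 were level here. The domain chr7:133400001-134400000 held 56 genes, among them *Mapk3* (the kinase ERK1), *Tbx6* (a T-box factor of mesoderm) and *Aldoa* (a glycolytic aldolase), and was higher by 0.41 and 0.70. There control 2 (o/e 0.607) was again just above cKO 1 (0.600). The domain chr4:140500001-141400000 (31 genes, including *Padi2*, which converts arginine to citrulline, and *Sdhb*, of succinate dehydrogenase) was higher by 0.53 and 0.88. The domain chr8:125600001-126500000 (27 genes, including *Rpl13*, *Fanca* and *Mc1r*) was higher by 0.56 and 0.70. All 5 had a GC content between 48.3% and 50.7%.

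**Figure D3:**
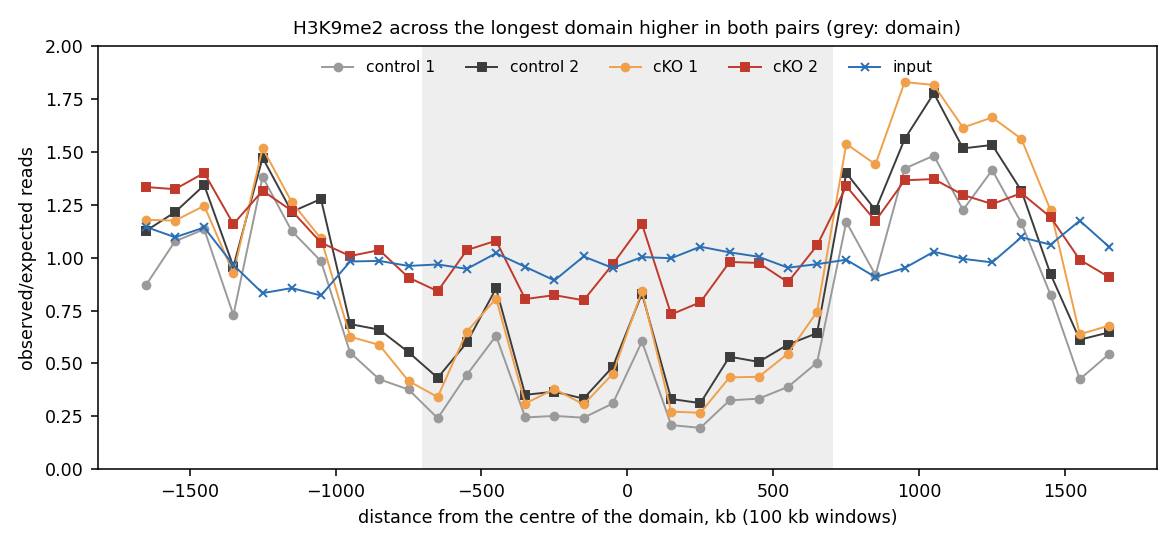
Observed over expected H3K9me2 reads in 100 kb windows across the longest higher domain (grey, 14 windows) and 1000 kb on each side, by distance from its centre. Inside, control 1 (median 0.318), control 2 (0.496) and cKO 1 (0.436) share the same troughs, whereas cKO 2 (0.926) runs along the input (0.983), and in the flanks all 4 H3K9me2 libraries have a median above 1.

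The 2 lower domains were 300 kb each and poor in genes. The domain chr10:103500001-103800000 held 3 predicted genes (*Gm6763*, *Gm8766* and *Gm4340*) and chr8:104700001-105000000 held none. Their median GC content was 36.9%, and the median o/e was 1.21 and 1.11 in the controls and 0.862 and 0.862 in the cKO libraries. The domains were chosen by these same changes, so the separation of these medians is a description. After GC correction 22 domains were lower, and 0 were with means of the deposited values or with GC correction and input mixture together.

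Domains and windows were next read in libraries that had not chosen them. The day 4 pair was higher in 176 of the 176 higher domains, by a median of 0.25. Among the 1817 windows higher by 0.32 or more in both day 8 pairs, 1771 (97.5%) were higher in the day 4 pair, against 50.4% of all windows, and the median was 0.22. The 183 lower windows were higher at day 4 in 21.9%, with a median of -0.07. The higher windows had a median GC content of 47.6% and the lower 37.1%, and the day 4 pair also increased with GC content, from -0.03 in the bin of 34% to 0.19 in that of 50%. The day 4 cKO library was in turn closer to the input than its control, with a standard deviation over input of 0.389 against 0.458. The part of either in the day 4 change was not tested. The higher domains differed less in the other marks. The median for H3K9me3 was 0.06 in pair 1 and 0.19 in pair 2 (all windows -0.03 and 0.02), where the pair 1 cKO library held 5669098 reads. For H3K27me3 it was -0.02 and -0.11 (all windows 0.04 and 0.07).

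Over gene bodies H3K9me2 was more often higher than lower. Of 23640 genes, 19875 had a mean of at least 20 reads over the 4 libraries, and those that did not pass were low in the mark. Of those tested, 1259 (6.33%) were higher by 1.5-fold or more in both pairs, 31 (0.156%) lower, and 21 and 215 moved in opposite directions. Pair 1 alone had 2656 higher and pair 2 alone 6417. The median change over all tested gene bodies was 0.19 in pair 1 and 0.31 in pair 2, while counting alone gave a standard deviation of 0.194 and 0.184. The pairs correlated weakly over gene bodies (r = 0.146, and 0.01 after GC correction). The 1259 higher genes had a median GC content of 50.5% (44.9% for all tested), 36.3 CpG sites per tile (23.9) and a length of 13.6 kb (20.1). Their median o/e was 0.332 and 0.491 in the controls, 0.582 in cKO 1, 0.941 in cKO 2 and 1.01 in the input. With the input mixture 117 gene bodies were higher in both pairs, and 63 of these were among the 1259. The filter on reads is a mean over both groups, and 273 of the 1259 had a control mean under 20 and passed through the cKO libraries, while 10 of the 31 lower ones passed through the controls, so their counts do not support a direction.

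The 10 gene bodies with the largest gain in both pairs were *Cox7a2l*, *Csnk2b*, *Six3*, *Nfkbid*, *Ddx54*, *2410018M08Rik*, *Apitd1*, *Nob1*, *Rps6kb2* and *Hnrnpk*. *Cox7a2l*, which helps to assemble respiratory supercomplexes, held 7 and 12 reads in the controls, 21 and 56 in the cKO libraries and 53 in the input. It was higher by 1.75 in pair 1 and 1.69 in pair 2, with counting errors of 0.63 and 0.46 (limma adjusted p-value 0.603). Each of the 10 had a control mean under 20 reads and passed the filter through the cKO libraries. They were also ranked by these same changes. That the groups did not overlap at *Cox7a2l* is therefore a description, and cKO 2 was near the input there. *Csnk2b*, the regulatory subunit of casein kinase 2, held 10 and 12 reads in the controls, 26 and 62 in cKO and 61 in the input. *Six3*, a homeobox factor of the forebrain and eye, held 10 and 12, then 26 and 56, with 67 in the input. *Hnrnpk*, an RNA-binding protein, held 12 and 20, then 28 and 72, with 116 in the input. In all of these genes cKO 1 lay between the controls and cKO 2. The day 4 pair was higher in 4 of the 10, so the named genes did not share a direction there, whereas over all 1259 genes it was higher in 1064 (84.5%), against 68.1% of all tested. With the input mixture 0 of the 10 were at 1.5-fold in both pairs. Their changes then ran from 0.05 to 0.63 in pair 1 and from -0.34 to 0.64 in pair 2, with 0.63 and 0.36 at *Cox7a2l*, 0.54 and 0.08 at *Six3* and 0.05 and -0.34 at *Hnrnpk*. No member of the 10 had an adjusted p-value under 0.603 with limma.

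The 31 lower gene bodies were short (median 1.00 kb). Their median o/e was 1.71 and 1.68 in the controls and 0.913 and 0.935 in the cKO libraries, with 1.05 in the input. These 4 libraries also chose the genes, so the high control level is partly built in. The log2 ratio of the input to the day 4 control, which chose no gene, had a median of -0.38. Over all tested gene bodies it was 0.35. Of the 31 genes 14 encode olfactory receptors, the odour receptors of sensory neurons, as do 794 of the 19875 gene bodies tested. The largest loss was at *Olfr945*, with 44 and 28 reads in the controls, 14 and 19 in cKO and 33 in the input (-1.39 and -1.03, counting errors 0.44 and 0.43). Its cKO mean was under 20 reads, so it passed the filter through the controls, and it was chosen by these same changes. The groups did not overlap, but the day 4 pair went the other way, with 16 and 38 reads. *Ddi1*, a protease-like gene, held 60 and 42 reads in the controls and 30 and 27 in cKO, with 22 in the input. *Krt31*, a hair keratin, held 115 and 83, then 60 and 53, with 50 in the input. *Vmn1r229* (a vomeronasal receptor) and *Pramel4* (of the PRAME family) were lower by similar amounts, -0.90 and -0.75 and -0.79 and -0.75. Over the 31 genes the day 4 pair was higher in 16, with a median of 0.00.

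Promoters, the tiles overlapping the 1 kb upstream of the gene start, were mostly too low in reads to compare. Of 23640 promoters 5879 passed the filter. The 17761 that did not pass had a median o/e of 0.240 and 0.246 in the controls, 0.281 in cKO 1, 0.643 in cKO 2 and 0.978 in the input, and the values of the first 3 libraries rest on a few reads each. The share that passed moved with CpG content. It was 52.4% of the 5411 promoters whose tiles held under 20 CpG sites and 0.779% of the 4623 whose tiles held 80 or more. In the CpG-poor class all libraries were near the average, with a median o/e of 1.05 and 1.02 in the controls, 0.984 and 1.05 in cKO and 1.05 in the input. In the CpG-rich class, where single promoters held few reads, the o/e of summed reads was 0.178 and 0.202 in the controls, 0.206 in cKO 1, 0.575 in cKO 2 and 0.945 in the input. At CpG-rich promoters cKO 1 was thus close to control 2, and cKO 2 was well above these.

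Among tested promoters 301 (5.12%) were higher by 1.5-fold or more in both pairs and 40 (0.68%) lower, and 58 and 43 moved in opposite directions. Without the filter on reads the counts were 4365 and 200. Of the 301 higher promoters 240 had a control mean under 20 reads, and of the 40 lower ones 21 had a cKO mean under 20. These passed only through the group in which they were high, and the counts are a description. The counting error of a typical tested promoter was large, with a standard deviation of 0.383 in pair 1 and 0.385 in pair 2. The higher promoters had a median of 35 CpG sites per tile and the lower 10.5, against 20 for all tested. Their median o/e was 0.510 and 0.614 in the controls and 0.984 and 1.20 in cKO for the higher, and 1.80 and 1.68 against 0.984 and 0.935 for the lower. The day 4 pair was higher at 70.1% of the higher promoters, 32.5% of the lower and 53.9% of all tested.

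Base composition is shown for 3 named promoters as the 200 bases upstream of the gene start, with CpG sites in capitals. They are read 5′ to 3′ from the plus strand of NCBIM37, on which all 3 genes lie. These are examples and do not stand for their groups. The 10 named higher promoters ranged from 13 to 76.5 CpG sites per tile, with *B3galtl* the highest. The 10 named lower promoters ranged from 5.5 to 26.5, so the groups overlapped. The first (*B3galtl* at chr5:150480605-150480804) was higher in both pairs of libraries. The others (*Enam* at chr5:88916807-88917006 and *Olfr1480* at chr19:13603965-13604164) were lower.
B3galtl: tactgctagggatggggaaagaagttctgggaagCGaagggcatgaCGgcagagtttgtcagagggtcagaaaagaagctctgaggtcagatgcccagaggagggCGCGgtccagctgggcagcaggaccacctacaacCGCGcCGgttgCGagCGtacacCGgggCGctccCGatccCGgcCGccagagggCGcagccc
Enam: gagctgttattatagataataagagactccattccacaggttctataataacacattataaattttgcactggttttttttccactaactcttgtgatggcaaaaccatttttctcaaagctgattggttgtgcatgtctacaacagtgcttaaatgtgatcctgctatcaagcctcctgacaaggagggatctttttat
Olfr1480: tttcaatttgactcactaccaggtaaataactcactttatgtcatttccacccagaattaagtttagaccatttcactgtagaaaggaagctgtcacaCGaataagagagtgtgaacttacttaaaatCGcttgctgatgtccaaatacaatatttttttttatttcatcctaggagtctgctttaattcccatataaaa
These stretches hold 15, 0 and 2 CpG sites in that order, against a median of 7 over the 23640 promoters. At least as many as in *B3galtl* are found in 27.4% of promoters and at least as many as in *Olfr1480* in 80.3%.

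The promoter of *Rxrg*, the retinoid X receptor gamma gene, passed the main limma test. Its control mean was under 20 reads, so it passed the filter through the cKO libraries. It held 15 and 12 reads in the controls, 41 and 53 in the cKO libraries and 29 in the input. Both cKO libraries were above both controls and above the input. The change was 1.65 in pair 1 and 1.61 in pair 2, with counting errors of 0.44 and 0.46 (limma adjusted p-value 0.0155). The 2 changes differed by less than their counting errors. Fits without the trend in the variance, with means of the deposited values and with limma-voom called no promoter. A replicate block called 1 promoter and GC correction 2. The smallest limma adjusted p-value of any promoter was 0.347 without the trend in the variance and 0.0526 with means of the deposited values. With limma-voom it was 0.494. The day 4 libraries held 20 and 21 reads, a change of -0.38, so no gain was seen at day 4.

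The other named higher promoters were *B3galtl*, *Utp23*, *Mapk8ip1*, *Kcnn2*, *Gimap5*, *Cnpy3*, *Cryba4*, *Gm17485* and *1110034G24Rik*. *B3galtl*, a glucosyltransferase, held 7 and 10 reads in the controls, 20 and 43 in cKO and 39 in the input. *Utp23*, a factor of ribosomal RNA processing, held 13 and 10, then 31 and 47, with 43 in the input. *Gimap5*, a GTPase of lymphocytes, held 15 and 11, then 31 and 47, with 32 in the input. At each of the 3 the groups did not overlap, and cKO 2 was near the input at *B3galtl* and *Utp23* and above it at *Gimap5*. All 3 had a control mean under 20 reads and passed the filter through the cKO libraries. They were chosen by these same changes, so the separation is a description. *Mapk8ip1*, a scaffold of JNK signalling, held 11 and 10 reads, then 24 and 36, with 23 in the input, and *Kcnn2*, a potassium channel gene, held 13 and 8, then 28 and 35, with 26 in the input. Of the 10 higher promoters the day 4 pair was higher at 6.

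The 10 named lower promoters were those of *Enam*, *Rps19-ps13*, *Gm3109*, *Aoah*, *Atp2c1*, *Olfr808*, *Olfr1480*, *Gm17303*, *Gm8526* and *Olfr1095*. *Enam*, which encodes the tooth enamel protein enamelin, held 33 and 28 reads in the controls, 13 and 12 in cKO and 27 in the input (-1.08 and -1.68, counting errors 0.47 and 0.50). *Atp2c1*, the calcium and manganese pump of the Golgi, held 66 and 49, then 30 and 39, with 30 in the input (-0.90 and -0.81). *Aoah*, an enzyme that inactivates bacterial lipopolysaccharide, held 30 and 24, then 11 and 19, with 17 in the input. Both controls were above both cKO libraries at all 3, which were chosen by these same changes. At *Enam* and *Aoah* the cKO mean was under 20 reads. The smallest limma adjusted p-value of the 10 was 0.254. The day 4 pair was higher at 5 of the 10. Of all 40 lower promoters 11 (27.5%) belong to olfactory receptor genes, as do 692 (11.8%) of all tested.

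**Figure D4:**
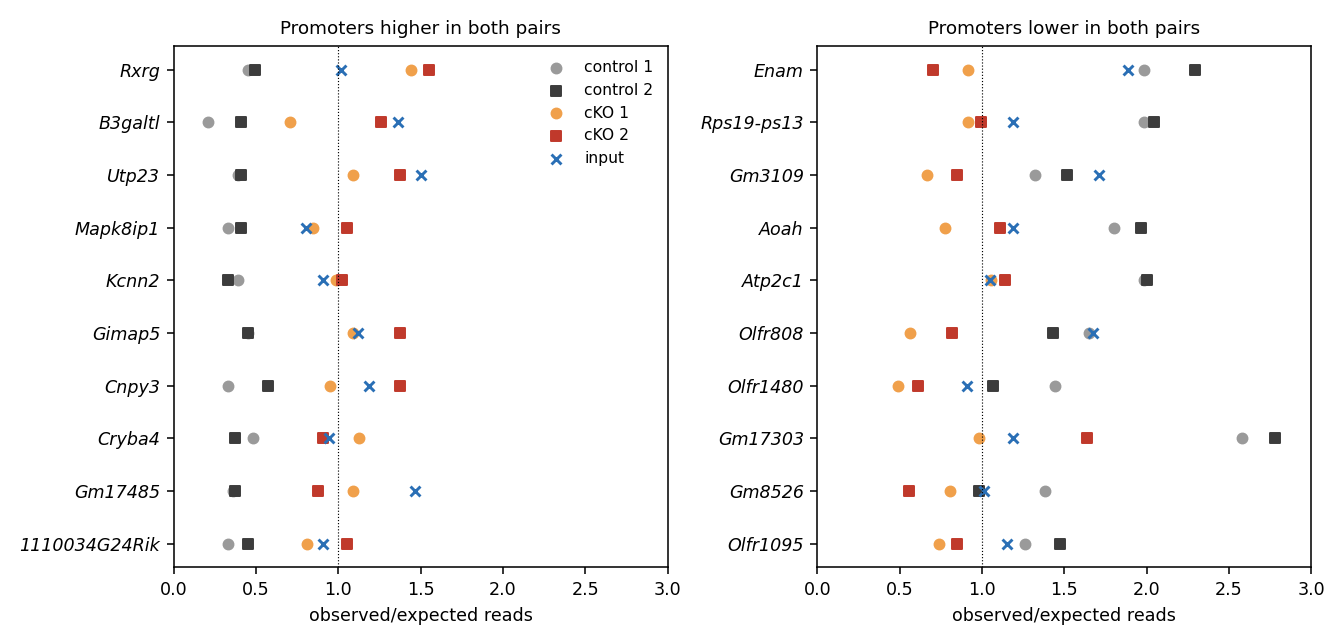
Observed over expected H3K9me2 reads at the 10 promoters with the largest gain (left) and the 10 with the largest loss (right) in both pairs, 1 point per day 8 library and 1 for the input. These promoters were chosen for the separation of grey and black points (controls) from orange and red points (cKO). At the higher promoters all control points lie under 1, and at the lower promoters all but the control 2 point of *Gm8526* lie above 1.

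Gene lists were compared with the background of 6.33% higher and 0.156% lower over all tested gene bodies. Among the enzymes and readers of H3K9 methylation (19 tested of 20 gene records), 1 was higher in both pairs, 0 were lower, and the median was 0.01 in pair 1 and 0.71 in pair 2. That gene was *Kdm4a*, a histone lysine demethylase, with 217 and 175 reads in the controls, 325 and 406 in cKO and 331 in the input. Among pluripotency genes (11 tested of 20), 3 were higher, with a median of 0.31 and 0.87. *Nanog* held 15 and 11 reads, then 22 and 54, with 70 in the input, *Sall4* held 28 and 42, then 42 and 143, with 162, and *Tcfap2c* held 27 and 31, then 44 and 76, with 79. These 3 genes encode transcription factors. At *Sall4* control 2 was above cKO 1 in RPM, and at *Nanog* and *Tcfap2c* the groups did not overlap. These genes were named for these same changes, so the separation is a description. At *Nanog* the control mean was under 20 reads, so it passed the filter through the cKO libraries. With the input mixture the changes were 0.01 and -0.01 at *Nanog*, -0.12 and 0.07 at *Sall4*, 0.46 and 0.07 at *Tcfap2c* and 0.64 and 0.29 at *Kdm4a*. Of germline genes (20 tested of 20) 0 were higher over the gene body, with medians of -0.01 and 0.13. Of their promoters 7 were tested and 2 were higher, against 5.12% of all tested promoters. Those were *Sycp3*, of the synaptonemal complex (20 and 18 reads, then 31 and 46, with 43 in the input), and *Tdrd1*, of the piRNA pathway (15 and 20, then 27 and 43, with 31). Both had a control mean under 20 reads and passed the filter through the cKO libraries, so their count does not support a direction. Of imprinted genes (27 listed, 25 found in the annotation, 21 tested) 0 were higher and 0 lower, with medians of 0.12 and 0.18.

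Of the 10 lists, Hox and ribosomal protein genes differed most between the pairs in their median over gene bodies. Hox genes (15 tested of 40), which pattern the body axis and are rich in CpG islands, had a median of -0.16 in pair 1 and 1.45 in pair 2, and their median o/e was 0.260 and 0.213 in the controls, 0.258 in cKO 1 and 0.704 in cKO 2. *Hoxb1* alone was higher in both pairs, with 17 and 19 reads, then 26 and 44, and 37 in the input. Ribosomal protein genes (16 tested of 76) had medians of 0.12 and 0.93, and 1, *Rpl26*, was higher in both. In both families cKO 1 resembled the controls and cKO 2 did not. Zinc finger genes named Zfp (321 tested) had 23 higher, near the background share of 6.33%, and 0 lower, against a background of 0.156%. Their medians were 0.15 and 0.44, with *Zfp771*, *Zfp691*, *Zfp61* and *Zfp687* leading. *Zfp61* held 41 and 50 reads, then 85 and 139, with 107 in the input. Olfactory receptor genes (794 tested) had 0 higher and 14 lower, with medians of -0.19 and -0.11 and a median GC content of 37.8%. Vomeronasal receptor genes (206 tested) had 0 higher and 1 lower, with medians of -0.27 and -0.09. Keratin genes (81 tested) had 1 higher and 2 lower, with medians of 0.17 and -0.25. Against a background of 5.12% higher and 0.68% lower over tested promoters, those of olfactory receptor genes (692 tested) had 2 higher and 11 lower (1.59%), those of Zfp genes (71 tested) 5 higher (7.04%, near the background) and 0 lower, and those of Hox genes had none with enough reads. No list member passed with limma. Among the gene bodies named here, *Hoxb1*, *Rpl26*, *Zfp771* and *Zfp691* had control means under 20 reads and passed the filter through the cKO libraries. Values of receptor genes are uncertain where near-identical copies exist, since alignments of low mapping quality had been discarded. In pair 2 the medians of the 10 lists ran in the order of their median o/e in control 2, a library of that pair, with the largest gain at the lowest level.

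**Figure D5:**
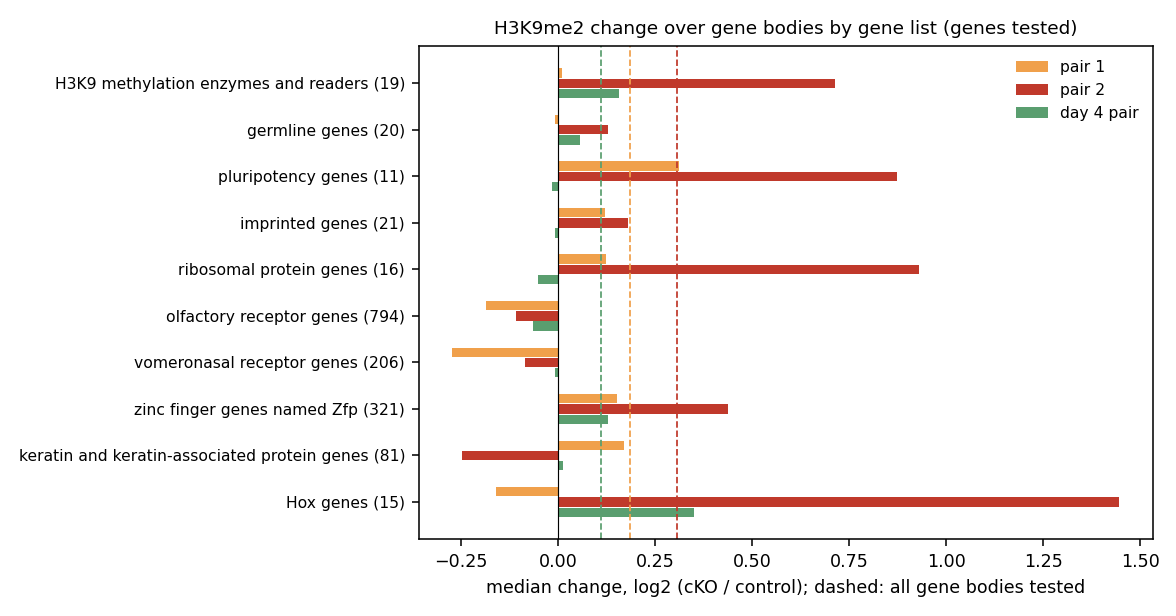
Median log2 change of H3K9me2 over gene bodies for 10 gene lists in pair 1, pair 2 and the day 4 pair, with the number of genes tested in brackets and dashed lines at the medians of all gene bodies tested (0.19, 0.31 and 0.11). Pair 2 exceeds pair 1 most for Hox genes (1.45 against -0.16), and both day 8 pairs are under 0 for olfactory and vomeronasal receptor genes.

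Some genes were at least 1.5-fold changed in both pairs under each of 6 treatments of the values, namely RPM, centring on the median window, the mean of the deposited values, GC correction, input mixture, and GC correction with input mixture. Of 19875 gene bodies tested, 14 were higher and 2 lower, and of 5879 promoters 38 were higher and 2 lower. These genes were named after their values had been seen. Under GC correction with input mixture taken by itself, 63 gene bodies were higher and 42 lower. For promoters those counts were 97 and 10. *Slc12a4*, a potassium chloride cotransporter gene, had the most reads of the 14 gene bodies, with 112 and 123 in the controls, 187 and 297 in cKO and 140 in the input. It was higher by 0.96, 0.78 and, at day 4, 0.62. *Abcb6*, a porphyrin transporter gene, held 31 and 34 reads, then 55 and 110, with 56 in the input. *Mapk3* held 24 and 22, then 41 and 85, with 56 in the input, and *Ran*, the GTPase of nuclear transport, held 9 and 19, then 19 and 51, with 25. In these genes cKO 2 was above the input as well as above both controls, and at *Ran* control 2 was above cKO 1. The 2 lower gene bodies were *Krt31* and *Olfr284*. Among the 38 promoters were *Rxrg*, *Gimap5*, *Osgin1* (22 and 13 reads, then 40 and 47, with 21 in the input), *Cfb* of complement (25 and 22, then 44 and 64, with 21) and *Slc16a3*, a lactate transporter gene (16 and 15, then 30 and 38, with 10). At all of these promoters both cKO libraries were above both controls. The control mean was under 20 reads at *Ran*, *Rxrg*, *Gimap5*, *Osgin1* and *Slc16a3*, which passed the filter through the cKO libraries. No gene of these sets other than *Rxrg* passed with limma.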

How the data were processed

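Trimming was done by the authors with Trim Galore and alignment to NCBIM37 with Bowtie2 2.2.9, keeping a mapping quality of at least 20. The authors then deposited the log2 of observed over expected reads per tile and library, without input subtraction. Its 1327469 tiles are 2 kb long, although the methods name 1 kb, and removal of duplicates is not stated in the sources used here. A tile without reads was written as 0.9 of a read. All values came out as whole reads within 0.02, so reads were recovered, which a log2 table does not show directly.

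Reads were summed over 100 kb windows, gene bodies and promoters of 23640 genes (22367 protein-coding, 1273 lincRNA) of the NCBIM37 annotation, scaled to RPM with a pseudocount of 0.5 read, and kept at a mean of at least 20 reads over the 4 libraries. Neighbouring genes, and a promoter and its gene body, can share tiles. limma 3.58.1 (R 4.3.3, eBayes with a trend, two-sided, Benjamini-Hochberg) gave the adjusted p-values. GC correction subtracted each library's median per GC bin of 0.02. The input mixture replaced each control by its best mix with the input. Gene position, GC content and CpG sites came from the NCBIM37 reference. Other calculations used Python 3.11.15, numpy 2.4.6 and pandas 2.3.3.

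Named genes were, per direction, the 10 protein-coding genes with the largest value of the smaller pair change, at least 10 kb apart, the 5 longest domains, *Dnmt1*, and up to 4 changed members per gene list. Genes alike under every treatment were picked once values had been seen. The comparison, the lists and the rules were chosen with earlier results of these data known. Counting errors cover counting only, since reads carried no molecular identifiers.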

Additional observations from a re-analysis of the deposited data

How the results depend on the processing

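The counts of windows, gene bodies and promoters depended on the libraries and on the treatment of base composition and input. With limma and a replicate block, 2807 windows (2436 higher, 371 lower), 493 gene bodies, all higher, and 1 promoter passed. The labels share only a number (correlation of same-numbered deviations 0.424 over windows, 0.269 over gene bodies and 0.134 over promoters, with 2 pairs), so the block is given here once. Leaving out 1 library gave 0 to 3044 windows, 0 to 5691 gene bodies and 0 to 5 promoters. The 1 promoter became 0 without a trend, with means of the deposited values and with limma-voom, and 2 with GC correction.

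Windows higher in both pairs (160) became 1 at 2-fold, 14 with controls exchanged between pairs (crossed), 4 with GC correction, 0 with the input mixture, 0 with both corrections and 5 with pair 1 and the day 4 pair. Windows lower (0) became 3 with crossed pairs, 4 with GC correction, 1 with the input mixture and 2 with both. Gene bodies higher (1259) became 105 at 2-fold, 437 with crossed pairs, 117 with the input mixture, 63 with both corrections and 381 with the day 4 pair. Gene bodies lower (31) became 1 at 2-fold, 12 with GC correction, 59 with the input mixture and 104 without the filter. Promoters higher (301) became 34, 176, 97 and 191 at 2-fold, with the input mixture, both corrections and the day 4 pair, and 4365 without the filter. Promoters lower (40) became 2 at 2-fold, 10 with both corrections and 200 without the filter. Domains higher (176) became 7 at 1.5-fold per window, 9 with crossed pairs, 0 with GC correction, 6 with the input mixture, 0 with both and 11 with the day 4 pair. Domains lower (2) became 0, 8, 22, 5, 0 and 0 in that order, and 0 with means of the deposited values. The cause was not tested. The combination of both corrections, the day 4 pair and all domain alternatives were chosen after the data had been seen. Centring on the median window left each count within 1.5-fold. The filter on reads left out 17761 of 23640 promoters.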
